A study of Mus musculus with 10 samples.

Results

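The Lin28 and let-7 circuit was followed through the reprogramming of mouse fibroblasts over 10 genes: Lin28a, Lin28b, Hmga1, Hmga2, Igf2bp1, Igf2bp2, Igf2bp3, Trim71, Dis3l2 and Dicer1. They were chosen by symbol, and all 10 were found among the 45706 genes of the deposited tables and passed the filter on low counts, with 20165 genes tested in all. Of these, Lin28a reached the filter's minimum count of 10 only from D6 on, and Lin28b only in D9 and ESC. RNA was measured in 5 groups of 2 libraries. The study addressed how the transcription factor KLF4 shapes enhancer networks while cells acquire and keep pluripotency, and the RNA libraries give the expression side of that time course.

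The MEF group was mouse embryonic fibroblasts from C57BL/6 x 129 animals that carry a doxycycline-inducible OKSM cassette (Oct4, Klf4, Sox2 and Myc on 1 transcript) at Col1a1 and the M2rtTA activator at Rosa26, kept in MEF medium without doxycycline and not sorted. The D3, D6 and D9 groups were cells of the same genotype after 3, 6 and 9 days in ESC medium with 1 µg/ml doxycycline and 50 µg/ml ascorbic acid. D3 cells were not sorted, whereas D6 and D9 cells were sorted for SSEA+, so time and sorting cannot be told apart between D3 and D6. The ESC group was V6.5 embryonic stem cells of the same strain mix, without the cassette, grown on irradiated feeder cells and not sorted. The labels do not say whether the 2 libraries of a group came from separate cultures or animals, so the p-values measure only the spread between these libraries.

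LIN28 proteins bind the precursors of the let-7 microRNA family and block their maturation, and mature let-7 in turn lowers the output of messages that carry matches to its seed, LIN28 messages among them. This double-negative loop separates early embryonic and stem cells, which have LIN28 and little mature let-7, from differentiated cells such as fibroblasts, which have the reverse. HMGA and IGF2BP proteins, the first a family of chromatin-bending factors and the second a family of RNA-binding proteins active in embryos, are textbook let-7 targets, as is TRIM71 (the mouse LIN41 ubiquitin ligase). DICER1 cuts let-7 precursors to their mature form, and DIS3L2 is the exonuclease that degrades precursors which LIN28 has marked for uridylation.

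The seed of let-7 defines what a target match is. The RefSeq table (GRCm38.p6) held 11 mature names of the family, miR-98 included, at 13 loci. The sequences below show let-7a, a member that differs from it only after the seed, and the only name with another seed, with bases 2 to 8 in capitals.
let-7a-5p (Mirlet7a-1, chr13:48538239-48538260, minus strand): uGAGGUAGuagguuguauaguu
let-7i-5p (Mirlet7i, chr10:122985698-122985719, minus strand): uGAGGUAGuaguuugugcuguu
let-7j (Mir7j, chr3:140028281-140028304, plus strand): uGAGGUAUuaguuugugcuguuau
Of the 11 names, 10 shared the seed GAGGUAG. The message side of that seed was searched for 3 kinds of match on the sense strand of messages, an 8mer (CTACCTCA), a 7mer-m8 (CTACCTC not followed by A) and a 7mer-A1 (TACCTCA not preceded by C), each counted once.

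In the longest annotated 3' UTR of each gene (GENCODE M21, GRCm38), 7 of the 10 genes held an 8mer, against 3.06% of the 21037 genes with an annotated 3' UTR. The genes are known as let-7 targets, so this share describes why they are grouped and is no result on its own. Trim71 held 4 8mers and Igf2bp1 held 3. Lin28a held 2, and Lin28b, Hmga2, Igf2bp2 and Igf2bp3 held 1 each. Long UTRs hold more matches by length alone: an 8mer was present in 4.81% of UTRs within 20% of the length of the Lin28a UTR (2775 bases), in 11.3% of those like the Trim71 UTR (5512 bases) and in 12.8% of those like the Igf2bp1 UTR (6337 bases). The sites below, printed as 30-base windows of the message with the 8mer in capitals, show 1 or 2 sites of each of the 7 genes with an 8mer, which include 2 of the 4 in Trim71 and 1 of the 3 in Igf2bp1.
Lin28a, UTR position 909 (chr4:134005182-134005211, minus strand): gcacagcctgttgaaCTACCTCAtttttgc
Lin28a, UTR position 1547 (chr4:134004544-134004573, minus strand): gagatcgccacaaacCTACCTCActgtgtt
Lin28b, UTR position 36 (chr10:45381015-45381044, minus strand): acccgggcgggaagtCTACCTCAtgcaagc
Trim71, UTR position 166 (chr9:114512465-114512494, minus strand): aacattgcctaagtcCTACCTCAgcttaaa
Trim71, UTR position 262 (chr9:114512369-114512398, minus strand): agtgataatttctatCTACCTCAactcttt
Hmga2, UTR position 58 (chr10:120364217-120364246, minus strand): gccgacattcaatttCTACCTCAgcatcag
Igf2bp1, UTR position 1715 (chr11:95961771-95961800, minus strand): gctgtgcgaagtaaaCTACCTCAaggtgtg
Igf2bp2, UTR position 1313 (chr16:22059466-22059495, minus strand): acacacaaataaaagCTACCTCAggtgttt
Igf2bp3, UTR position 548 (chr6:49086780-49086809, minus strand): tgcatttttactcaaCTACCTCAggtattc

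With the shorter matches included, Hmga2 held the most sites, 7, spread over a UTR of 3014 bases. Trim71 held 6 sites, and Lin28b and Igf2bp1 held 5 each. Hmga1 held 1 site, a 7mer-m8. The UTRs of Dicer1 (3851 bases) and Dis3l2 (350 bases) held none of the 3 matches. The Dicer1 message did hold the 8mer, but inside the protein-coding part, where 3 8mers and 1 7mer-m8 lay in 5721 bases. Dicer1 was the only 1 of the 10 genes with a coding 8mer. Its 3 coding windows were the following.
Dicer1, coding position 3611 (chr12:104702797-104702826, minus strand): tacctgtacaaccaaCTACCTCAtatccca
Dicer1, coding position 3719 (chr12:104702689-104702718, minus strand): ggaacgctaacacatCTACCTCAgatggaa
Dicer1, coding position 5091 (chr12:104694689-104694718, minus strand): agatgcgattttggaCTACCTCAtaaccaa

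**Figure D1:**
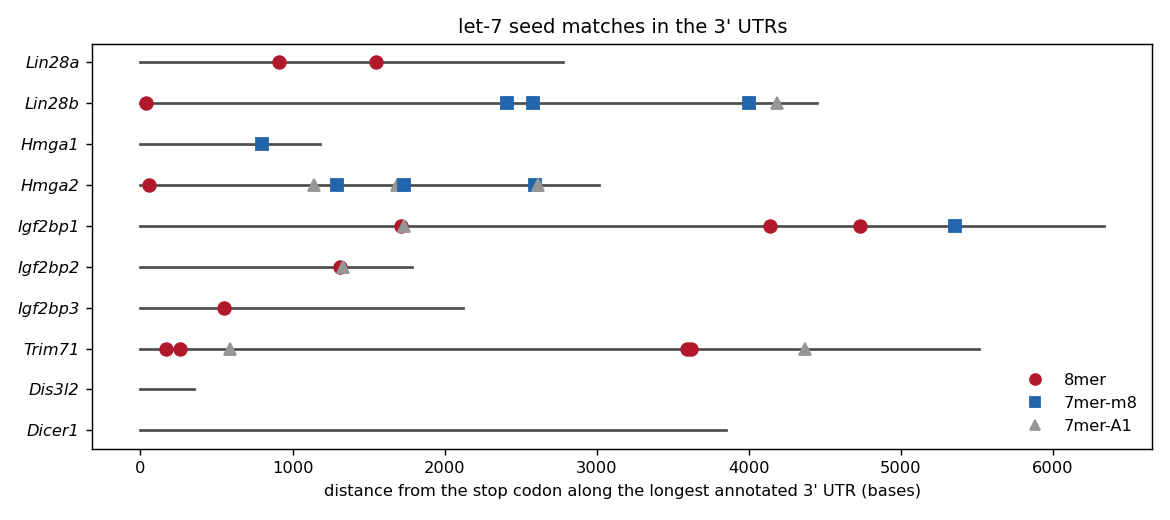
Positions of let-7 seed matches along the longest annotated 3' UTR of each gene; the x axis is the distance from the stop codon in bases, lines span the UTR, and symbols mark 8mer, 7mer-m8 and 7mer-A1 matches. Trim71 shows 4 8mers, Hmga2 shows 7 sites of all kinds, and the lines of Dis3l2 and Dicer1 are empty.

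Libraries held 29585876 to 38275024 estimated reads. Levels within a gene are given as CPM (read counts scaled to the library's total, with edgeR's TMM factors), and levels between genes as TPM, which also divides by transcript length. Groups went with their labels: the summed level of 13 fibroblast markers went from 56314 to 58659 CPM in MEF to 572 to 601 CPM in D9, and that of 10 pluripotency markers from 2.03 to 2.46 CPM in MEF to 4162 to 4253 CPM in ESC. The ESC libraries also held fibroblast markers at 7978 to 8106 CPM, 14.0% of the MEF level, with 12 of the 13 markers at 1 CPM or more in both libraries and Lum under 1 CPM. Of the other lists, 6 epithelial markers were highest in D9 (1198 to 1257 CPM summed) and 6 macrophage markers in ESC (80.5 to 83.3 CPM, against 24.8 CPM or less elsewhere). The sum of 5 endothelial markers was 8.64 to 9.64 CPM in MEF, 130 to 133 CPM in D3 and 77.4 CPM or more in every later library. That of 5 keratinocyte markers was 28.9 to 29.8 CPM in D9 and 2.73 CPM or less elsewhere, and that of 5 proliferation markers went from 795 to 813 CPM in MEF to 1705 to 1760 CPM in D3 and 2221 to 2289 CPM in ESC. Some sums rest on part of their list. In D9 the keratinocyte markers Ivl, Krt5 and Trp63 were under 1 CPM. Of the endothelial markers, Cdh5 and Pecam1 were under 1 CPM in MEF, Emcn in D3, D6 and D9, and Cdh5 and Kdr in ESC. The macrophage marker Ptprc was under 1 CPM in ESC. The part of any of these cell types, or of proliferation, in the results below was not tested. MEF libraries carried Ddx3y, a Y-linked gene, at 86.4 and 90.6 CPM and Xist under 1 CPM, while all D3, D6 and D9 libraries held Ddx3y under 1 CPM and Xist at 930 CPM or more, as in male and in female cells. ESC libraries held Ddx3y at 26.1 and 26.8 CPM and Xist at 11.3 and 9.01 CPM. Sex thus cannot be told apart from stage between MEF and D3 or between D9 and ESC. Nor can medium and doxycycline be told apart from stage between MEF and D3, or cell source, cassette and sorting between D9 and ESC. A gene was called when its adjusted p-value (edgeR's quasi-likelihood test, Benjamini-Hochberg over all 20165 genes) was under 0.05 and its log2 fold change at least 1 in size, and only called genes are said to have risen or fallen. Each later comparison shares its earlier group with the one before, so successive fold changes are not independent.

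Of the 10 genes, 2 rose and 0 fell between MEF and D3, where 14.6% of all tested genes were called higher and 14.5% lower. Between D3 and D6, 2 rose and 0 fell, against 9.26% of all genes higher and 10.2% lower. Between D6 and D9, 2 rose and 0 fell, against 5.18% higher and 2.68% lower. Between D9 and ESC, 5 rose and 1 fell, against 18.6% higher and 14.3% lower, and over the whole distance from MEF to ESC 5 rose and 1 fell, against 25.5% higher and 20.6% lower. The counts of 0 lower were also 0 by DESeq2 and by limma with either pseudocount, but 1 gene, Lin28a, was called lower at D3 under 4 alternatives given below. At an unadjusted p under 0.05 in edgeR, 2 of the 10 were lower at D3, 2 at D6 and 5 at D9, beside 30.4%, 28.8% and 22.7% of all genes. Counts of rises were the same with DESeq2 and mostly smaller on log2(TPM + pseudocount) with limma, where 1, 0 and 1 genes were called higher at D3, D6 and D9 with a pseudocount of 1, and 2, 1 and 1 with 0.1. By edgeR the genes that rose were Trim71 and Dis3l2 at D3, Lin28a and Trim71 at D6, Lin28a and Lin28b at D9, and Lin28a, Lin28b, Trim71, Igf2bp1 and, with the uncertainty given below for this gene, Hmga1 in ESC. The median log2 fold change of the 10 genes was 0.50, 0.28, -0.06 and 1.05 over the 4 steps, beside 0.08, 0.03, 0.00 and 0.00 for all tested genes.

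**Figure D2:**
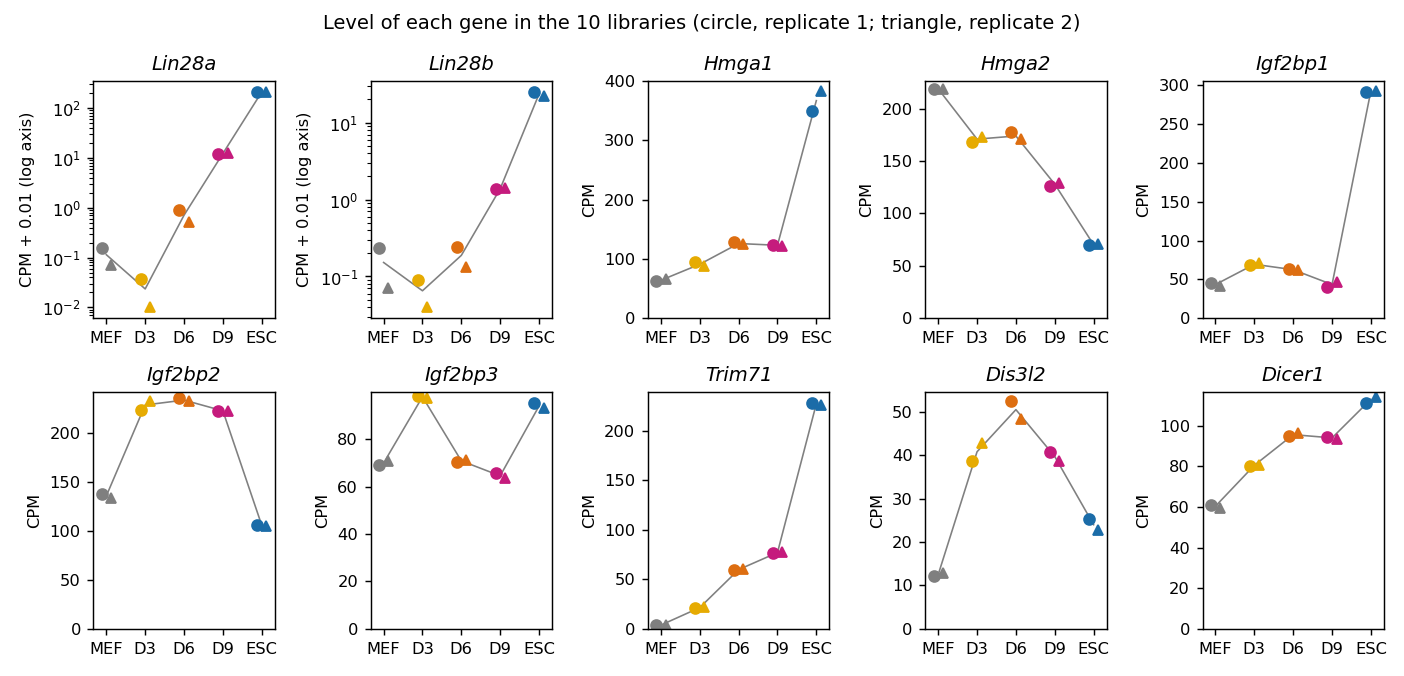
Level of each gene in every library, by group; the y axis is CPM, linear except for Lin28a and Lin28b, where it is CPM + 0.01 on a log axis, circles and triangles are replicates 1 and 2 and lines join group means. Lin28a and Lin28b lie near 0 until D6 and climb through D9 to ESC. Trim71 has a higher mean in each group than in the one before, though its step from D6 to D9 was not called. Hmga2 is highest in MEF, and Dis3l2 has its highest mean at D6, in steps to and from D6 that were not called.

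The 2 LIN28 paralogs, the RNA-binding proteins at the head of the circuit, were close to absent in fibroblasts and came late. Lin28a (chr4:134003330-134018841, minus strand) measured 0.148 and 0.061 CPM in MEF, 0.0269 and 0 in D3, 0.882 and 0.514 in D6, 12.0 and 12.3 in D9 and 211 and 206 in ESC. The 5 groups did not overlap, and the D3 libraries were lowest, although they rest on 1 and 0 reads (a count of 0 allows up to 0.0886 CPM in that library). In these bulk libraries, few cells with much Lin28a and many cells with little cannot be told apart. Lin28a rose between D3 and D6, from 1 read to 47 reads over both libraries, a ratio of 49.7 (exact 95% counting interval 8.50 to 2010, adjusted p = 8.0e-06 by edgeR). On log2(TPM + pseudocount) with limma this difference was 0.13 with a pseudocount of 1 (adjusted p = 0.18) and 0.96 with 0.1 (adjusted p = 0.0036), neither called. Lin28a rose again by 4.11 ± 0.15 (log2 fold change ± SE, adjusted p = 8.4e-11) from D6 to D9 and by 4.10 ± 0.06 (adjusted p = 9.0e-16) from D9 to ESC. The D9 level was thus 5.84% of the ESC level, and ESC stood 2080 times above MEF (955 to 5660, from 14878 and 6 reads). Between MEF and D3 the log2 fold change of Lin28a was -2.55 ± 1.10 (adjusted p = 0.057), which rests on 6 reads and 1 read. Under 4 of the alternatives, among them leaving out MEF replicate 2 (-3.09, adjusted p = 0.042) or D3 replicate 1 (-4.81, adjusted p = 0.047), the same difference was called lower, and the counting interval of its ratio, 0.00306 to 1.16, included 1.

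Lin28b (chr10:45376620-45486395, minus strand), the paralog whose protein also blocks let-7 maturation, was also near 0 before D9 and lower than Lin28a from D6 on. It measured 0.222 and 0.061 CPM in MEF, 0.0808 and 0.0296 in D3, 0.235 and 0.121 in D6, 1.35 and 1.39 in D9 and 25.1 and 22.0 in ESC. MEF overlapped both D3 and D6, whereas D9 and ESC stood apart. Lin28b rose from D6 to D9 by 2.91 ± 0.36 (adjusted p = 1.9e-05, from 12 to 97 reads) and from D9 to ESC by 4.10 ± 0.19 (adjusted p = 1.0e-10). It passed the filter on low counts only through D9 and ESC, the groups where it is high. The D6 to D9 log2 fold change was also 2.91, and called, with no low-count filter. With limma the D6 to D9 difference was 0.14 with a pseudocount of 1 (adjusted p = 0.087) and 0.90 with 0.1 (adjusted p = 0.0027), neither called. Its log2 fold change from D3 to D6 was 1.60 ± 0.71 (adjusted p = 0.070), and without D6 replicate 2 it was 1.99 and called (adjusted p = 0.049). At D9 Lin28b stood at 5.82% of its ESC level, beside 5.84% for Lin28a. Per length, Lin28a outweighed its paralog: it made up 93.7% and 94.9% of their summed TPM in D9 and 93.4% and 94.1% in ESC, where the sum was 36.2 and 34.7 TPM. In MEF the sum was 0.041 and 0.0138 TPM, too few reads to give a ratio.

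Trim71 (chr9:114507133-114564369, minus strand), whose protein is a ubiquitin ligase and RNA-binding repressor of stem cells and early embryos, rose already at D3 and was, with Lin28a, 1 of 2 genes called at 3 of the 4 steps. It measured 3.95 and 3.72 CPM in MEF, 21.4 and 21.6 in D3, 59.6 and 60.0 in D6, 76.6 and 77.4 in D9 and 228 and 226 in ESC. No groups overlapped, and the 2 libraries of each group differed by less than 10% of their mean. Trim71 rose by 2.49 ± 0.07 at D3 (adjusted p = 2.8e-13), by 1.47 ± 0.04 at D6 (adjusted p = 1.0e-12) and by 1.56 ± 0.03 from D9 to ESC (adjusted p = 2.6e-14). With limma on log2(TPM + 1) the differences at D3 and D6 were 0.82 and 0.94 (adjusted p = 9.7e-06 and 1.1e-05), under the fold threshold. The step from D6 to D9 was 0.37 ± 0.04 (adjusted p = 2.3e-06), under the fold threshold. At D3, while Lin28a had 1 read in both libraries together, Trim71 had 796 and 732. Its level reached 9.50%, 26.4% and 34.0% of the ESC level at D3, D6 and D9, all larger shares than those of Lin28a (0.00646%, 0.335% and 5.84%).

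The HMGA genes, whose proteins bind AT-rich DNA and which are known as markers of embryonic and of tumour cells, went opposite ways. Hmga2 (chr10:120361275-120476469, minus strand), the gene with the most let-7 sites of the 10, measured 219 and 219 CPM in MEF, 168 and 173 in D3, 178 and 171 in D6, 126 and 129 in D9 and 69.5 and 70.9 in ESC. Only D3 and D6 overlapped. From MEF to ESC, Hmga2 fell by 1.64 log2 units (SE 0.04, adjusted p = 1.5e-14) and was the only 1 of the 10 called lower there. The fall was spread over the course: the log2 fold changes were -0.36 at D3, 0.03 at D6, -0.45 at D9 and -0.86 from D9 to ESC (SE 0.03 to 0.04), none past the fold threshold by itself. The ESC libraries that gave 70.2 CPM of Hmga2 also held the fibroblast markers given above at 14.0% of their MEF level, and the part of those cells in the Hmga2 level was not tested.

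Hmga1 (chr17:27556497-27563674, plus strand) measured 62.4 and 65.7 CPM in MEF, 94.4 and 87.6 in D3, 128 and 125 in D6, 123 and 122 in D9 and 349 and 384 in ESC. No groups overlapped, although D6 and D9 differed by only -0.04 ± 0.05 on the log2 scale (adjusted p = 0.55). Hmga1 rose by 1.58 ± 0.05 from D9 to ESC (adjusted p = 9.0e-13) and by 2.52 ± 0.05 from MEF to ESC (adjusted p = 7.7e-15). The Hmga1 values, the step from D9 to ESC included, are given as uncertain, since whether its reads were all assigned to the right gene is not shown here. The TPM ratio of Hmga1 to Hmga2 went from 1.22 and 1.25 in MEF to 3.97 and 3.94 in D9 and to 17.4 and 20.1 in ESC, with the same uncertainty in its last step.

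The 3 IGF2BP genes encode related RNA-binding proteins that bind and stabilize messages and are widely active in embryos. Igf2bp1 (chr11:95957163-96005940, minus strand) measured 44.9 and 41.8 CPM in MEF, 68.1 and 70.9 in D3, 63.4 and 61.5 in D6, 40.6 and 46.1 in D9 and 292 and 293 in ESC. The D9 libraries overlapped those of MEF, and the ESC libraries stood above all others. Igf2bp1 rose from D9 to ESC by 2.75 ± 0.05 (adjusted p = 6.2e-15), after differences of 0.68, -0.15 and -0.52 at D3, D6 and D9 that did not pass the fold threshold. Its MEF and D9 levels were both 14.8% of that in ESC.

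Igf2bp2 (chr16:22059009-22163299, minus strand) differed from Igf2bp1 in direction from D9 to ESC. It measured 138 and 134 CPM in MEF, 224 and 233 in D3, 236 and 233 in D6, 223 and 223 in D9 and 106 and 105 in ESC. The 6 induced libraries stood above both MEF and ESC libraries, and only D3 and D6 overlapped as neighbours in the order of levels. Igf2bp2 fell from D9 to ESC by 1.08 on the log2 scale (SE 0.03, adjusted p = 1.3e-12), close to the fold threshold. Over its protein-coding transcripts alone the difference was -0.84 (adjusted p = 3.2e-05) and not called, nor was it with limma (-0.93 and -0.96 with pseudocounts of 1 and 0.1, adjusted p = 2.1e-05 for both). A transcript annotated as a retained intron, Igf2bp2-009, took 65.0% to 77.5% of the gene's estimated reads, and the 2 protein-coding transcripts together 18.7% to 29.4%, so the gene sum mostly follows a transcript that codes for no protein in the annotation used by the authors.

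Igf2bp3 (chr6:49085223-49214957, minus strand) measured 68.9 and 70.9 CPM in MEF, 98.2 and 97.5 in D3, 70.5 and 71.0 in D6, 65.5 and 63.5 in D9 and 95.0 and 92.9 in ESC. It was called at no step, its largest log2 fold change being 0.54 ± 0.04 from D9 to ESC (adjusted p = 9.3e-09). MEF and D6 overlapped. As a family, the 3 genes summed to 44.1 and 43.4 TPM in MEF, 58.2 to 71.9 TPM in the induced libraries and 66.8 and 64.0 TPM in ESC. Within the sum, Igf2bp2 made up 67.0% and 67.6% in MEF, 77.8% and 77.8% in D9 and 36.7% and 35.5% in ESC, whereas Igf2bp1 made up 15.3% and 14.3%, 10.2% and 11.0%, and 46.3% and 47.5%. By whole-gene TPM, the sum in ESC thus lay within the range of the induced libraries, with Igf2bp1 in place of Igf2bp2 as the largest part. These sums and shares include the retained-intron transcript Igf2bp2-009, which took 65.0% to 77.5% of the Igf2bp2 reads. Shares over protein-coding transcripts alone were not computed, so which gene is the largest part of the coding messages is not shown.

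**Figure D3:**
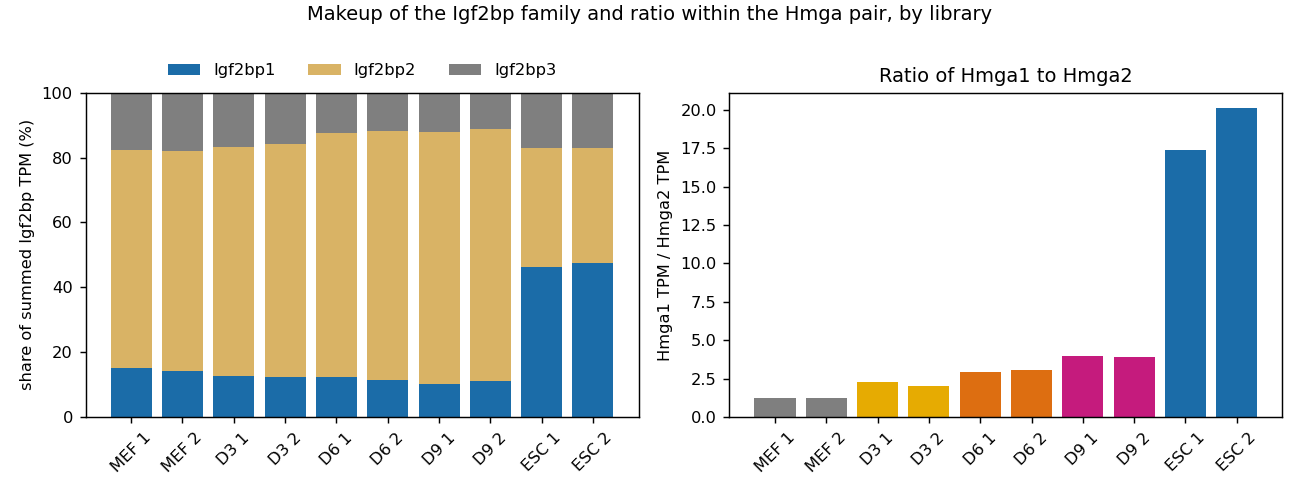
Left, share of each Igf2bp gene in the summed TPM of the family (y axis, percent) for each library; right, the ratio of Hmga1 to Hmga2 TPM (y axis, no unit) for each library, bars coloured by group. Igf2bp2 is the largest part in MEF to D9 and Igf2bp1 in both ESC libraries, and the Hmga ratio goes from 1.22 and 1.25 in MEF to 17.4 and 20.1 in ESC. Shares are of whole-gene TPM, with the retained-intron transcript of Igf2bp2 included.

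The genes of the 2 enzymes that act on let-7 precursors differed in their course, with Dis3l2 called at D3 and Dicer1 at no step. Dis3l2 (chr1:86703808-87050095, plus strand) measured 12.2 and 12.9 CPM in MEF, 38.7 and 42.9 in D3, 52.6 and 48.4 in D6, 40.7 and 38.7 in D9 and 25.2 and 22.8 in ESC. Its level was highest at D6, and the D9 and D3 libraries overlapped. Dis3l2 rose by 1.70 ± 0.08 at D3 (adjusted p = 1.0e-10), in libraries with 1 and 0 reads of Lin28a. No later step passed the fold threshold: the log2 fold changes were 0.31, -0.35 and -0.72 at D6, at D9 and from D9 to ESC, with adjusted p of 8.7e-04, 6.7e-04 and 3.8e-07. In ESC it was 0.94 ± 0.08 above MEF (adjusted p = 9.6e-08), just under the threshold, and it was called with library-size scaling (1.27) and without ESC replicate 2 (1.00). Its reads were divided between Dis3l2-001 and Dis3l2-002 in shares that varied between replicates, from 26.7% to 8.12% for the first in MEF, so no change between transcripts can be read.

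Dicer1 (chr12:104687742-104751952, minus strand) measured 61.1 and 59.7 CPM in MEF, 80.0 and 80.9 in D3, 94.9 and 96.2 in D6, 94.5 and 93.5 in D9 and 111 and 114 in ESC. No groups overlapped, yet no step was called. The log2 fold changes were 0.42 at D3, 0.25 at D6, -0.02 at D9 and 0.26 from D9 to ESC (SE 0.03 to 0.04). Their adjusted p-values were 1.9e-07, 3.3e-05, 0.67 and 1.2e-05. From MEF to ESC it was 0.90 ± 0.04 (adjusted p = 1.4e-11), under the fold threshold, and 1.24 and called with library-size scaling. By TPM, Dicer1 in ESC (5.64 and 5.71) stood below both Lin28a (33.8 and 32.6) and Trim71 (12.3 and 11.9), whereas in MEF it (2.94 and 2.82) stood above both, at 0.021 and 0.00849 for Lin28a and 0.201 and 0.186 for Trim71.

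**Figure D4:**
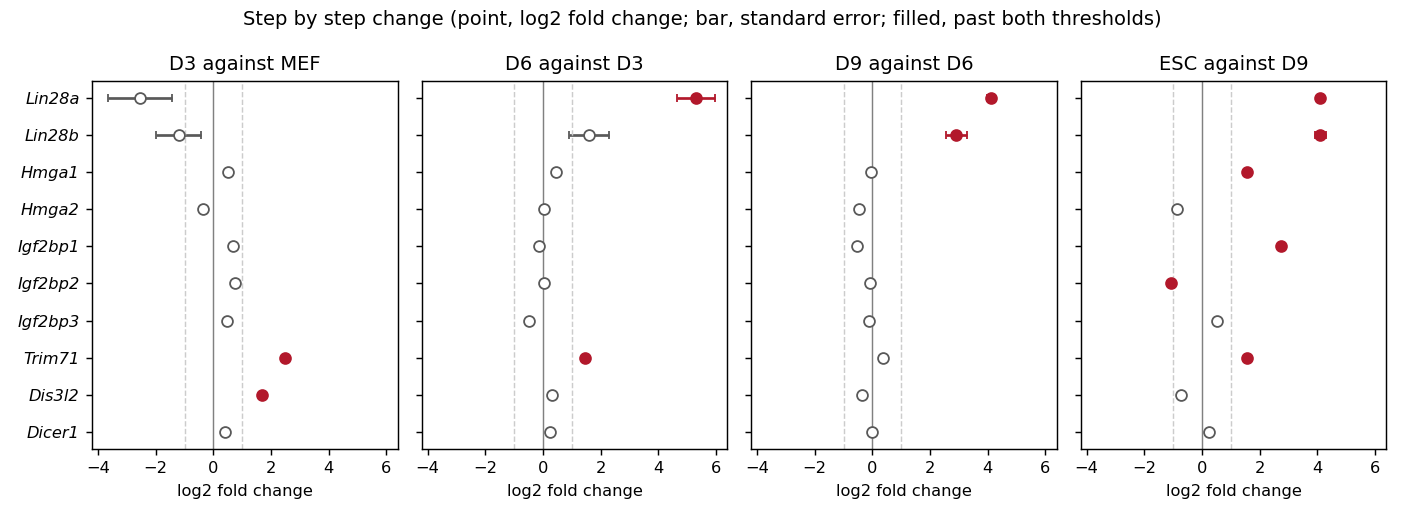
Log2 fold change of each gene at the 4 successive steps (x axis, edgeR); bars are standard errors, filled red points passed both thresholds, and dashed lines mark a log2 fold change of 1 in either direction. Red points shift from Trim71 and Dis3l2 at D3 to the Lin28 genes at D9, and 6 genes are red in the step from D9 to ESC, where Igf2bp2 alone is on the lower side.

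The order of levels by TPM changed from MEF to ESC. In MEF the highest were Hmga1 (35.6 and 35.8 TPM), Igf2bp2 (29.5 and 29.3) and Hmga2 (29.2 and 28.6), the last pair differing by less than 1 TPM. In ESC, Hmga1 (170 and 197) was followed by Lin28a (33.8 and 32.6), Igf2bp1 (30.9 and 30.4) and Igf2bp2 (24.5 and 22.8). Hmga2 (9.81 and 9.82) came below Trim71 and Igf2bp3 (11.3 and 10.9) there. The place of Hmga1 in this order carries the same uncertainty. Igf2bp2 is placed by whole-gene TPM. Its protein-coding transcripts took 29.4% and 27.6% of its reads in MEF and 25.6% and 27.8% in ESC, and its place by those alone was not computed.

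Genes whose course was most like that of Lin28a and Hmga2 were looked up among the protein-coding genes tested, by Pearson r of log2 CPM over the 10 libraries, which fall into 5 pairs of replicates and share depth scaling. A prior count of 2 was added before the log, which draws the values of libraries with few reads together, and r takes no account of the size of a change. For Lin28a these were Snurf (r = 0.994), Pdzk1 (r = 0.993) and Mgat5b (r = 0.992). Mgat5b went from 0.148 and 0.0305 CPM in MEF to 2.22 and 2.50 in D9 and 14.2 and 14.4 in ESC. Snurf was already present in MEF (2.63 and 3.00 CPM) and reached 15.6 and 16.2 in ESC, and Pdzk1 stayed under 2 CPM in every library. For Hmga2 the genes were Arsa (r = 0.998), Tmem176a (r = 0.996) and Eef2 (r = 0.996), of which Arsa went from 97.4 and 97.3 CPM in MEF to 24.5 and 24.0 in ESC. Eef2 changed by a smaller factor, from 4779 and 4775 CPM in MEF to 3051 and 3145 in ESC.

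The machinery that makes and uses let-7 was followed as a list. Of 20 genes of let-7 processing and silencing (Drosha, Dgcr8, Xpo5, Argonaute and uridyltransferase genes among them), all 20 tested, edgeR called 2 higher at D3, 1 lower at D6, 0 at D9, 0 from D9 to ESC and 1 higher from MEF to ESC. For all genes, edgeR called 14.6% higher at D3, 10.2% lower at D6 and 25.5% higher from MEF to ESC. It called 5.18% higher and 2.68% lower at D9, and 18.6% and 14.3% from D9 to ESC. DESeq2 and limma also called 0 of the 20 at D9 and from D9 to ESC. There 14 and 15 of the 20 had an unadjusted p under 0.05 in edgeR, beside 42.3% and 71.6% of all genes. At D9, 13 of the 14 were lower, beside 22.7% of all genes. From D9 to ESC 11 of the 15 were lower, and the share of all genes by direction is not given here. From MEF to ESC DESeq2 also called Prkra lower, named here after its values were seen. The median log2 fold change of the 20 was 0.26 at D3, 0.06 at D6, -0.14 at D9, -0.10 from D9 to ESC and 0.22 from MEF to ESC. Ago4, an Argonaute of low level, rose by 1.90 ± 0.14 at D3 (adjusted p = 1.9e-08) and fell by 1.40 at D6 (SE 0.13, adjusted p = 4.5e-07), measuring 3.25 and 3.02 CPM in MEF, 11.9 and 11.4 in D3 and 4.56 and 4.30 in D6. Ago1 rose by 1.18 ± 0.04 at D3 (adjusted p = 4.1e-12). Drosha, the nuclease that cuts primary microRNA transcripts, rose by 1.17 ± 0.04 from MEF to ESC (adjusted p = 4.1e-12), from 74.8 and 69.8 CPM to 161 and 164. The uridyltransferase genes Zcchc11 and Zcchc6, whose enzymes tail let-7 precursors, were named for that role after their values were seen: from MEF to ESC their log2 fold changes were 0.47 ± 0.05 and -0.90 ± 0.05 (adjusted p = 6.8e-07 and 1.7e-10), neither called.

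Mature let-7 itself was not measured by these poly(A) libraries. The tables list 10 hairpin genes of the family, with 0 to 5 reads per library over all of them together, and none was tested. Of the annotated genes that overlap a let-7 hairpin by coordinates, 6 were in the tables and tested. Huwe1, host of let-7f-2 and miR-98, and Wdr82, host of let-7g, were called in none of the 5 comparisons, at log2 fold changes of 0.76 and 0.52 from MEF to ESC. The non-coding gene that overlaps let-7a-2, named 2610203C20Rik in the tables, rose by 1.32 at D3 (adjusted p = 1.6e-10), fell by 1.45 at D6 (adjusted p = 9.6e-11) and fell by 1.48 from D9 to ESC (adjusted p = 1.2e-09). From MEF to ESC it fell by 2.18 (adjusted p = 4.7e-12). It measured 49.2 and 46.3 CPM in MEF, 120 and 119 in D3, 41.0 and 46.1 in D6, 29.9 and 28.7 in D9 and 11.5 and 9.53 in ESC. Spaca6, which overlaps let-7e, fell by 1.15 at D6 (adjusted p = 4.9e-08) and fell by 1.20 from D9 to ESC (adjusted p = 5.6e-08). From MEF to ESC it fell by 1.08 (adjusted p = 1.5e-07). Of all tested genes 14.6% rose at D3, and 10.2% fell at D6, 14.3% from D9 to ESC and 20.6% from MEF to ESC. The gene over let-7a-1, let-7d and let-7f-1, 6720427I07Rik, and Mir99ahg, over let-7c-1, were low (5.49 CPM or less) and called in none. The level of a host message is not that of the microRNA, whose maturation is the step that LIN28 blocks.

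A further 30 genes known as let-7 targets, all tested, moved in both directions. At D3 9 rose and 3 fell, at D6 2 rose and 1 fell, at D9 0 rose by edgeR, DESeq2 or limma (9 were higher at an unadjusted p under 0.05, beside 19.6% of all genes) and 1 fell, from D9 to ESC 4 rose and 7 fell, and from MEF to ESC 8 rose and 8 fell. Of all tested genes 14.6% rose and 14.5% fell at D3, 9.26% and 10.2% at D6, 5.18% and 2.68% at D9, 18.6% and 14.3% from D9 to ESC, and 25.5% and 20.6% from MEF to ESC. Their median log2 fold changes were 0.34, 0.15, -0.11, -0.07 and -0.09 in that order, beside 0.08, 0.03, 0.00, 0.00 and 0.10 for all tested genes. An 8mer was present in the longest 3' UTR of 15 of the 30. Of the genes named from this list, Dna2, Nr6a1, Igf1r and Irs2 held an 8mer, and Arid3b, E2f2, Mycn, Plagl1 and Myc did not. Arid3b, a DNA-binding factor, rose by 2.32 ± 0.12 at D3 (adjusted p = 6.2e-10) and by 1.64 ± 0.07 from D9 to ESC (adjusted p = 5.1e-11), from 1.70 and 2.23 CPM in MEF to 51.4 and 51.1 in ESC. E2f2, a cell cycle factor, rose by 2.20 ± 0.11 at D3 (adjusted p = 3.4e-10).

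Mycn, the MYC paralog of embryonic cells, rose by 3.61 ± 0.08 at D6 (adjusted p = 6.5e-14) and measured 1.33 and 1.01 CPM in MEF, 2.45 and 2.57 in D3, 31.0 and 30.4 in D6, 59.4 and 59.2 in D9 and 95.2 and 98.3 in ESC. Dna2, a nuclease and helicase of replication, rose by 1.32 ± 0.07 at D6 (adjusted p = 1.2e-09). Nr6a1, an orphan nuclear receptor of germ and stem cells, rose by 3.03 ± 0.08 from D9 to ESC (adjusted p = 3.0e-13), from 5.66 and 5.83 CPM to 47.4 and 46.3. Mycn and Dna2 were not called from D9 to ESC. For the statements on overlap of groups given above, the share of all genes without overlap was not computed.

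Other genes of the list fell. Plagl1, a zinc finger factor, fell by 1.05 at D3 (adjusted p = 1.1e-11), fell by 2.24 at D6 (adjusted p = 5.4e-14) and fell by 5.15 from MEF to ESC (adjusted p = 2.6e-17). Igf1r, the receptor of insulin-like growth factors, fell by 1.17 at D9 (adjusted p = 7.1e-09), and Irs2, an adaptor of insulin signalling, fell by 2.27 from D9 to ESC (adjusted p = 7.2e-13). Plagl1 measured 215 and 214 CPM in MEF and 5.86 and 6.20 in ESC. Myc fell by 3.94 from D9 to ESC (SE 0.04, adjusted p = 3.9e-17) and fell by 2.65 from MEF to ESC (SE 0.04, adjusted p = 1.3e-15). It measured 118 and 117 CPM in MEF, 276 and 275 in D3, 334 and 325 in D6, 278 and 294 in D9 and 19.0 and 18.4 in ESC. The induced cells carry Myc in the OKSM cassette, whose reads cannot be told apart from those of the endogenous gene in these tables.

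Over all tested genes with a 3' UTR, those with and without an 8mer had similar distributions of change. The median log2 fold change from MEF to ESC was -0.08 over the 565 genes with an 8mer and 0.04 over the 15009 without. Leaving out 1 library moved the first value to between -0.05 and -0.03. Of the genes with an 8mer, 24.1% were called higher and 24.4% lower, against 25.6% and 23.1% of those without. From D9 to ESC, where 5 of the 10 genes rose, the medians were 0.03 and 0.05, with 18.8% and 19.7% of genes called higher. From D6 to D9, 8.14% of the genes with an 8mer were called higher against 5.68% of those without (7.89% with the 10 genes left out), and 3.01% against 2.97% were called lower. With 7mer-m8 matches included, the shares called higher at this step were 6.10% and 5.73%. At D3 and D6 the medians were 0.09 against 0.03 and -0.02 against 0.01. These are descriptions of the gene groups, which were not matched for UTR length, with no test between them.

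**Figure D5:**
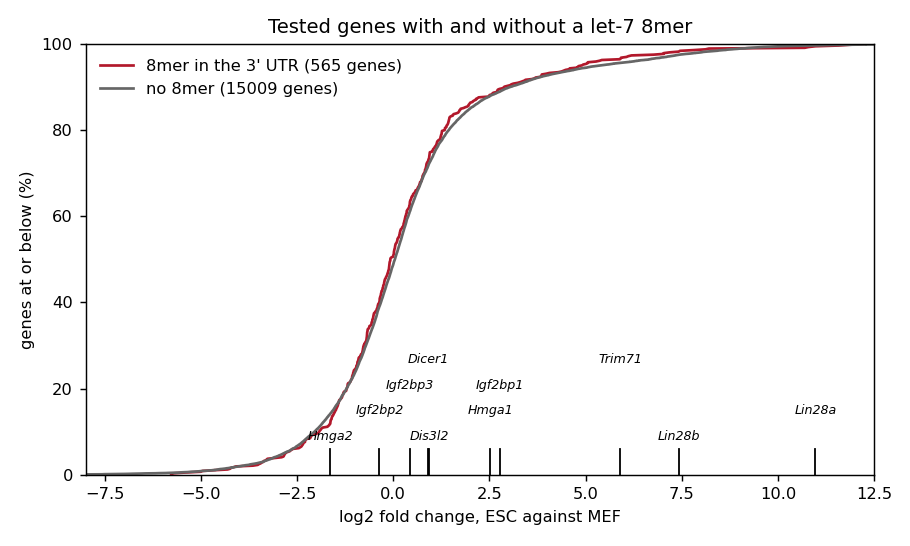
Share of tested genes at or below each log2 fold change from MEF to ESC (y axis, percent) for the 565 genes with an 8mer in the longest 3' UTR and the 15009 without; ticks mark the 10 genes of the circuit. The curves lie close together around medians of -0.08 and 0.04, and the ticks run from Hmga2 at -1.64 to Lin28a at 10.97.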

How the data were processed

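RNA from 10 libraries, 2 in each of 5 groups, was analysed from 1 deposited table of 109617 transcripts per library. Per the submitters' processing notes, the authors used Salmon 0.8.2 and mm10. The index and its annotation release are not given in the sources used here. Per the labels, libraries were stranded, poly(A)-selected and read as single reads, and all carry 1 batch label. The deposited estimated counts are not normalized, and the authors' TPM values divide by effective length, which was identical in all tables.

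Counts were summed per gene and rounded. Genes were kept with filterByExpr (minimum count 10, minimum total 15), scaled with TMM and tested with edgeR 4.0.16 (R 4.3.3), fitting all 10 libraries with no block. The common biological coefficient of variation was 3.75%. With 2 libraries against 2, an exact permutation test cannot go below p = 0.333, so none is given. Counting intervals (exact binomial, 95%) and floors (3 counts) cover counting error only. Replicates differed by more than counting noise.

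All 10 genes were named. In each list, the 2 largest rises and 2 largest falls among called genes that reached 5 CPM in either group were named, and for Lin28a and Hmga2 the 3 protein-coding genes of highest r. The genes and lists were chosen with earlier results of these data known. Same-numbered libraries did not deviate together (mean correlation 9.91e-05 over 10 pairs of groups). Alternatives used DESeq2 1.42.0 and limma 3.58.1, other filters, scalings and pseudocounts (1 and 0.1), coding transcripts alone, a length offset, a replicate block and each library left out. UTRs came from GENCODE M21 and mature microRNAs from RefSeq. Coordinates are GRCm38. A further check of the Hmga1 values is not reported here.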

Additional observations from a re-analysis of the deposited data

How the results depend on the processing

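Of 750 values of the 10 genes under alternative settings, 733 kept their call, 9 lost it, 8 gained it and none of the called ones changed sign; 5 uncalled values near 0 did. With DESeq2, no count of genes called among the 10 moved by over 1.5 times. The pseudocount mattered most for low genes: with limma on log2(TPM + 1) the genes called higher were 1 of the 10 at D3, 0 at D6 and 1 at D9, and with a pseudocount of 0.1 they were 1 at D6 and 1 at D9. Added pseudocounts shrink fold changes of genes under 1 TPM. The genes called lower from D9 to ESC were 0 with either pseudocount and 0 over protein-coding transcripts, since Igf2bp2 then missed the fold threshold. At D3, 1 gene (Lin28a) was called lower with the stricter filter (10 CPM in 2 libraries) and with DESeq2 size factors in edgeR; leaving out 1 library gave 0 to 1 genes there. With the replicate block the genes called higher stayed at 2, 2, 2, 5 and 5 in the 5 comparisons; the numbers do not pair the libraries. For the 2 gene lists, 275 of 300 counts stayed within 1.5 times. The median of the 8mer genes from MEF to ESC was -0.08 in the UTR of the most-read transcript and 0.05 with 7mer-m8 matches included. Depth limits Lin28a and Lin28b before D9, where no library held over 30 reads of either.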
